A study of Mus musculus with 2 samples.

Results

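The data describe 32 genes of sterol and fatty acid synthesis in leukocytes of mouse melanomas, chosen by symbol from the 27998 genes listed in the count matrices. All 32 had UMIs (unique molecular identifiers, each counting 1 captured transcript) in both libraries. The genes were taken in 4 parts. The mevalonate and isoprenoid arm held 8 genes, the steps from squalene to cholesterol 11, sterol sensing and transport 6, and fatty acid synthesis 7. The first 2 parts together are called the 19 sterol enzymes below. The tumours were YUMM1.7 melanomas, a mouse melanoma cell line, injected under the skin of the flank. The hosts were knock-in mice in which the mouse gene is replaced by human APOE, either the APOE2 or the APOE4 variant. CD45+ DAPI- leukocytes were sorted on day 19 from 6 mice of each genotype and pooled before capture on a droplet system with 3′ v3 chemistry. Each genotype is therefore 1 library, with no control genotype, and mice cannot be told apart within it. The labels used here do not give strain, sex or age. No test between genotypes was possible, and no p-value is given. Every difference below is a difference between 2 libraries, and every interval covers counting error only.

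Sterols and fatty acids are built from acetyl-CoA. The mevalonate arm makes the isoprenoid farnesyl diphosphate, which is either joined into squalene and turned into cholesterol or used to anchor proteins to membranes. The sterol enzymes are targets of the transcription factor SREBP2, which is held in the endoplasmic reticulum by INSIG proteins while cholesterol is plentiful and escorted by SCAP to the Golgi when it is scarce. SREBP1 acts more on the fatty acid genes. APOE carries cholesterol between cells, and APOE2 binds the receptors that take up lipoproteins less well than APOE4.

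The APOE2 library held 4665 annotated cells with 38959426 UMIs and the APOE4 library 5385 cells with 36046103 UMIs. The members made up 28610 and 27828 of the UMIs of these annotated cells. Only 9 barcodes occurred in both libraries, 8 of them annotated. Reads assigned to the mouse gene Apoe were present in both, at 453 and 371 CPM (UMIs scaled to the same total in each label and library) in the label Mø cluster 2, so these counts do not check the genotypes. The authors' 26 cell labels were used as given. In total 17 labels had at least 50 cells in each library and at least 10 members with 20 or more UMIs (called measured), and only these were compared. Of the labels that matter most below, cDC 1 scored highest on the markers of type 1 conventional dendritic cells, cDC 2 on those of type 2, migratory DCs on theirs, and both Mø clusters on macrophage markers. The label pDCs held the highest level of the plasmacytoid list. Its cDC1 list stood at 2802 and 3450 CPM, against 2892 and 3147 CPM in cDC 1. Irf8 alone made up 2665 and 3288 CPM of that sum in pDCs. The label Monocytic DCs scored highest on macrophage markers. M-MDSC 1 reached at most 0.247 of the highest label on any marker list. That was the melanoma list, of which 5 of 6 genes were at 0 in each library. Its neutrophil markers summed to 44100 and 38820 CPM, below the 267600 and 293100 CPM of G-MDSC 2, the highest label.

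The upstream sequences of the members differed by part, and 4 are shown as examples from the sterol enzymes and the fatty acid genes. A RefSeq promoter entry (GRCm38.p6) was matched for 26 of the 32 members and none for Fdps, Fdft1, Sqle, Scd2, Fads1 and Stard4. In the 250 bases upstream of the start, the NF-Y motif CCAAT, read on both strands, was found in 6 of 7 genes of the mevalonate arm and in 9 of 9 genes from squalene to cholesterol. It was found in 1 of 5 fatty acid genes (Fasn, with 3 matches) and in 37.5% of all 27025 genes with an entry. The Sp1 motif GGGCGG was found in 5 of 7, 9 of 9 and 2 of 5 genes of the same parts and in 35.4% of all genes. Of the sterol sensing and transport genes, 4 of 5 held the NF-Y motif and 5 of 5 the Sp1 motif. The E-box CACGTG was found in 5 of 26 members against 6.86% of all genes. The sterol regulatory element, searched as TCACNCCAC, was found in 1 of 26 members, Hmgcs1, against 1.22% of all genes. None of these motifs overlapped another in the sequences shown, and a match is a description of the letters only. The windows are those of Hmgcs1, the HMG-CoA synthase (chr13:119690101-119690350, plus strand), Mvk, mevalonate kinase (chr5:114444019-114444268, plus strand), Nsdhl, a sterol dehydrogenase (chrX:72918271-72918520, plus strand), and Acly, the ATP citrate lyase that supplies acetyl-CoA (chr11:100528001-100528250, minus strand). All lie upstream of the annotated gene, and capitals mark the 4 motifs or their complements.
Hmgcs1: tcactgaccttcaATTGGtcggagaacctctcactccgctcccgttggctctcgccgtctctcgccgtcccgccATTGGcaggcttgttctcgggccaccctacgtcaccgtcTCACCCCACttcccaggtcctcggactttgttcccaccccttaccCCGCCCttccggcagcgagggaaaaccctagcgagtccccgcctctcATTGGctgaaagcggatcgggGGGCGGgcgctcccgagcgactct
Mvk: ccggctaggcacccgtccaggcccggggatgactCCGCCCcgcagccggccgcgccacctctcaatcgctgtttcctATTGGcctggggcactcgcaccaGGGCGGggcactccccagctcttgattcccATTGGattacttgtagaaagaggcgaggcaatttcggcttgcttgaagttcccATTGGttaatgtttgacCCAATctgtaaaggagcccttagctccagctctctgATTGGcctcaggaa
Nsdhl: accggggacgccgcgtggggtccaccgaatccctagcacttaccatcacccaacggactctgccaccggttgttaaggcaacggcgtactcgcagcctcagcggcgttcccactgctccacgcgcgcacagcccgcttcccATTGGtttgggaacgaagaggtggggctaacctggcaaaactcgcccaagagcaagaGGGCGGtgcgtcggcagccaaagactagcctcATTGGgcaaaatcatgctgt
Acly: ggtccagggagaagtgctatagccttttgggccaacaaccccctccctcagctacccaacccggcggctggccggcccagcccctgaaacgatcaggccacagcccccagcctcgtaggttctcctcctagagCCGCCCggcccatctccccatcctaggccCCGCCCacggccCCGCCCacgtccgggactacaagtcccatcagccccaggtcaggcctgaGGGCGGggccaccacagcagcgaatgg
The Hmgcs1 window held 3 CCAAT boxes, 2 Sp1 boxes and the sterol element 137 bases before the start. The Mvk window held 5 CCAAT boxes and the Nsdhl window 2. The Acly window held 4 Sp1 boxes and no CCAAT box.

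The question addressed was whether these genes differed in level between leukocytes of APOE2 and APOE4 hosts, and in which cells. For each label the UMIs of a gene were summed per library and scaled to the label total, and the log2 ratio of CPM (APOE4 over APOE2) was taken. The median over the measured members was highest in cDC 1 at 0.56, followed by Mø cluster 2 at 0.38, migratory DCs at 0.38, Monocytic DCs at 0.26 and Monocytes 3 at 0.25. It lay nearest 0 in pDCs at 0.00 and was lowest in NK cluster 2 at -0.10. The medians over all genes with as many UMIs lay between -0.02 and 0.09 in the 17 labels. Joined by lineage, the median was 0.38 in dendritic cells, 0.13 in monocytes and macrophages, 0.04 in T cells, 0.00 in myeloid-derived suppressor labels and -0.16 in NK cells. The medians over all genes of these classes were 0.084, -0.073, -0.012, -0.004 and 0.081. That of the members in dendritic cells lay between 0.24 and 0.36 over 3 alternatives. The classes join labels in different proportions, with 111 and 205 pDCs and 144 and 91 cDC 1 cells in the APOE2 and APOE4 libraries.

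**Figure D1:**
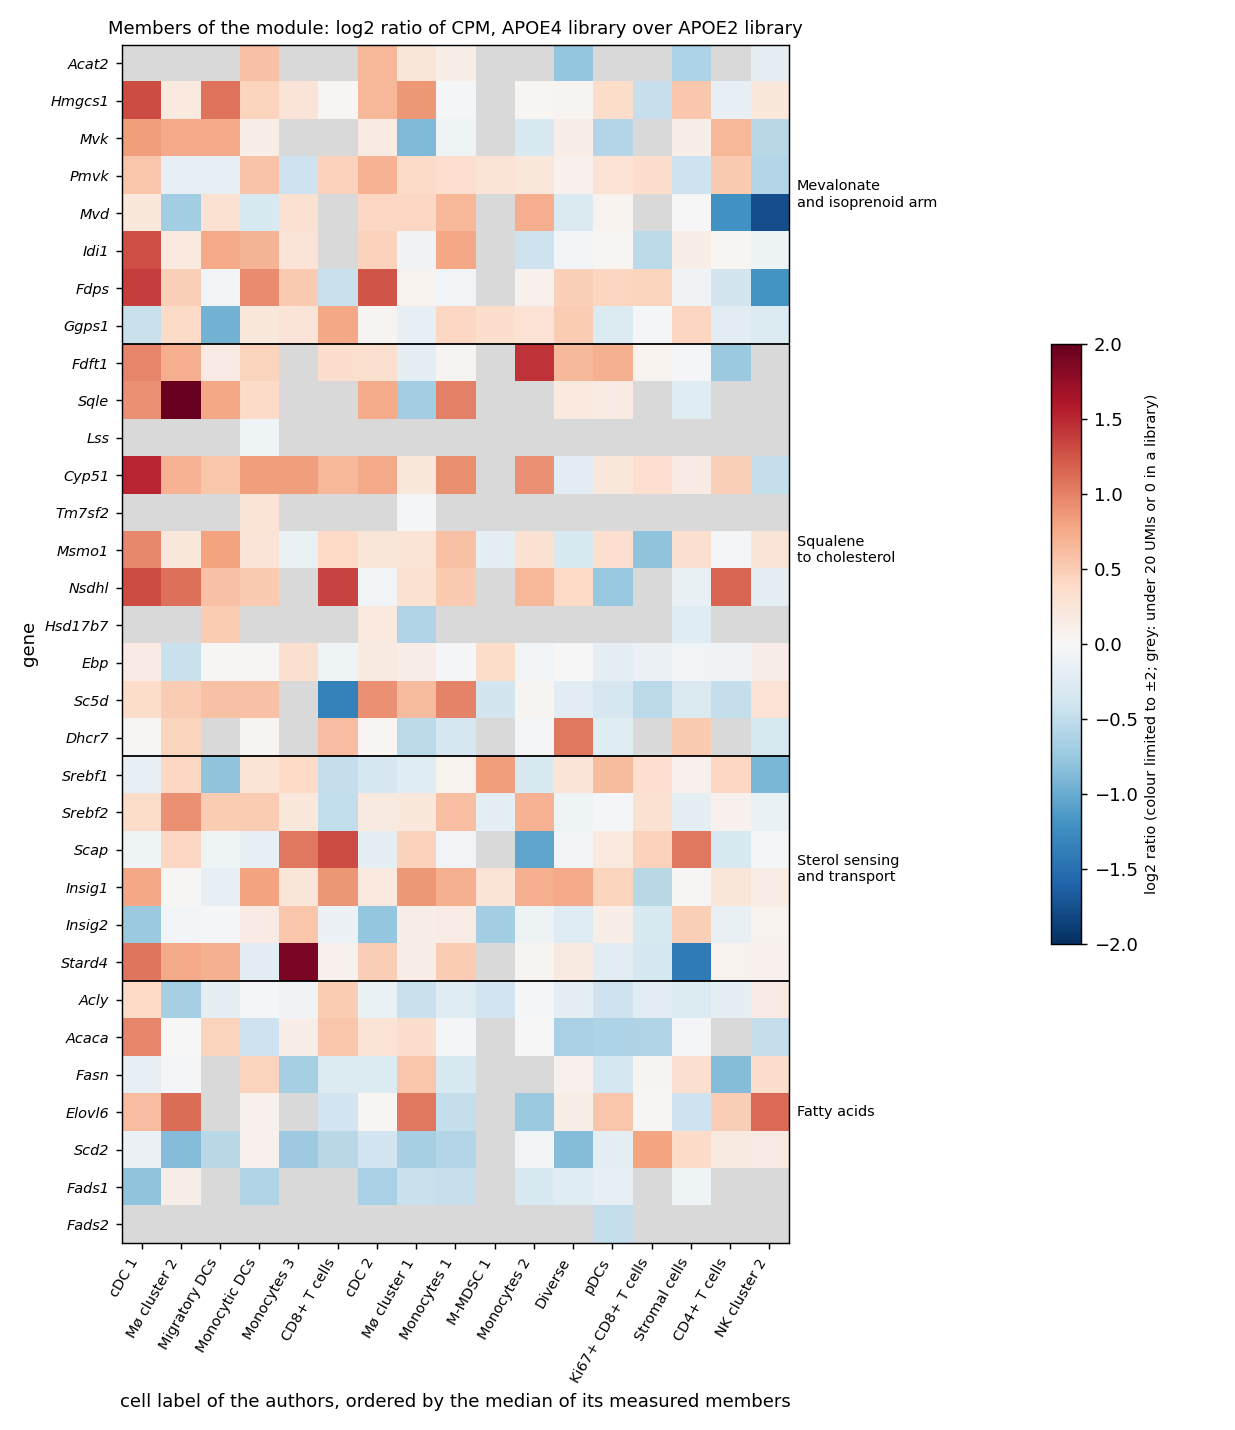
Log2 ratio of CPM (APOE4 library over APOE2 library) of each member (rows, by part) in each of the 17 compared labels (columns, ordered by the median of their measured members). Grey marks fewer than 20 UMIs or a count of 0 in a library. The upper rows are red in cDC 1, where 14 of 15 measured sterol enzymes were higher in APOE4, and the rows of Acly, Scd2 and Fads1 are mostly blue.

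In type 1 conventional dendritic cells, which take up and cross-present antigen, the genes of the mevalonate arm were higher in the APOE4 library. Fdps, which makes farnesyl diphosphate, stood at 78.0 CPM (152 UMIs, 144 cells) in APOE2 and 203.7 CPM (237 UMIs, 91 cells) in APOE4, a ratio of 2.61 [2.12, 3.225]. Its annotated span shares 7512 bases with Gm43738 on the same strand, and how reads falling in both were counted is not stated in the labels or headers. Hmgcs1, which makes HMG-CoA, stood at 26.2 and 64.5 CPM, a ratio of 2.46 [1.70, 3.59]. Idi1, the isomerase that interconverts the isoprenoid building blocks, stood at 22.6 and 55.0 CPM, a ratio of 2.44. The Poisson intervals of the 2 libraries did not meet for any of these 3 genes. Pmvk, the phosphomevalonate kinase, was 1.48-fold higher [1.11, 1.96], while Mvd, the decarboxylase, was at 13.3 and 15.5 CPM and Ggps1, which makes geranylgeranyl diphosphate, at 17.4 and 12.9 CPM, with intervals of the ratio that hold 1. The summed level of the 8 genes was 224 CPM in APOE2 and 455.5 CPM in APOE4, a ratio of 2.03 [1.79, 2.31].

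The later steps moved in the same direction in cDC 1. Cyp51, the lanosterol demethylase, stood at 25.1 CPM (49 UMIs) in APOE2 and 72.2 CPM (84 UMIs) in APOE4, a ratio of 2.87 [1.996, 4.17] and the highest of the measured members there. Nsdhl was at 7.69 and 18.9 CPM, Msmo1, a methylsterol monooxygenase, at 22.6 and 43.8 CPM, and Sqle, the squalene epoxidase, at 11.8 and 22.4 CPM. The ratios of these 3 genes were 2.46, 1.94 and 1.89, with lower bounds of 1.22, 1.27 and 1.04. Ebp, a sterol isomerase, was at 65.7 and 73.9 CPM and Dhcr7, which makes cholesterol in the last step of its branch, at 9.23 and 9.45 CPM, with intervals of the ratio that hold 1. The 11 genes summed to 171 and 286 CPM, a ratio of 1.68 [1.435, 1.96]. Of the 15 measured sterol enzymes of cDC 1, 14 were higher in APOE4, 9 of them by 1.5-fold or more, and their median log2 ratio was 0.92.

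Sensors and fatty acid genes of cDC 1 differed less and in both directions. Srebf2, which encodes SREBP2, was at 85.7 and 110 CPM, a ratio of 1.28 [1.01, 1.63]. Insig1, itself an SREBP target, was at 21.5 and 37.0 CPM (1.72 [1.095, 2.69]), while Insig2 was at 27.2 and 16.3 CPM (0.60 [0.34, 1.03]). Stard4, which carries cholesterol between membranes, was at 12.3 and 25.8 CPM (2.10 [1.18, 3.74]). Scd2, a fatty acid desaturase, was at 90.8 and 83.4 CPM (0.92 [0.71, 1.18]), and Fasn, the fatty acid synthase, at 47.2 and 42.1 CPM (0.89 [0.62, 1.28]). Acaca, the acetyl-CoA carboxylase, was the highest of the fatty acid genes at 11.8 and 23.2 CPM (1.97 [1.09, 3.59]), and Fads1, a desaturase of polyunsaturated fatty acids, the lowest at 16.4 and 9.45 CPM (0.58 [0.26, 1.17]). The 7 fatty acid genes summed to 220.5 and 230 CPM, a ratio of 1.04 [0.89, 1.22], so the interval of this sum did not reach that of the sterol enzymes, 1.88 [1.70, 2.07].

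Over all 27 measured members of cDC 1, 20 were higher and 7 lower in APOE4, with log2 ratios from -0.80 to 1.52. In this label 54.4% of all 7963 genes tested were higher. At 1.5-fold or more, 13 members were higher, against 8.65% of all genes, and 2 were lower, against 8.93%. Elovl6, with 11 and 10 UMIs, was just inside the minimum of 20 UMIs, and Hsd17b7, with 4 and 11 UMIs (2.05 and 9.45 CPM), just outside. With a minimum of 50 UMIs 8 of 18 measured members were 1.5-fold or more higher and 1 lower, against 5.89% and 4.97% of all genes.

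**Figure D2:**
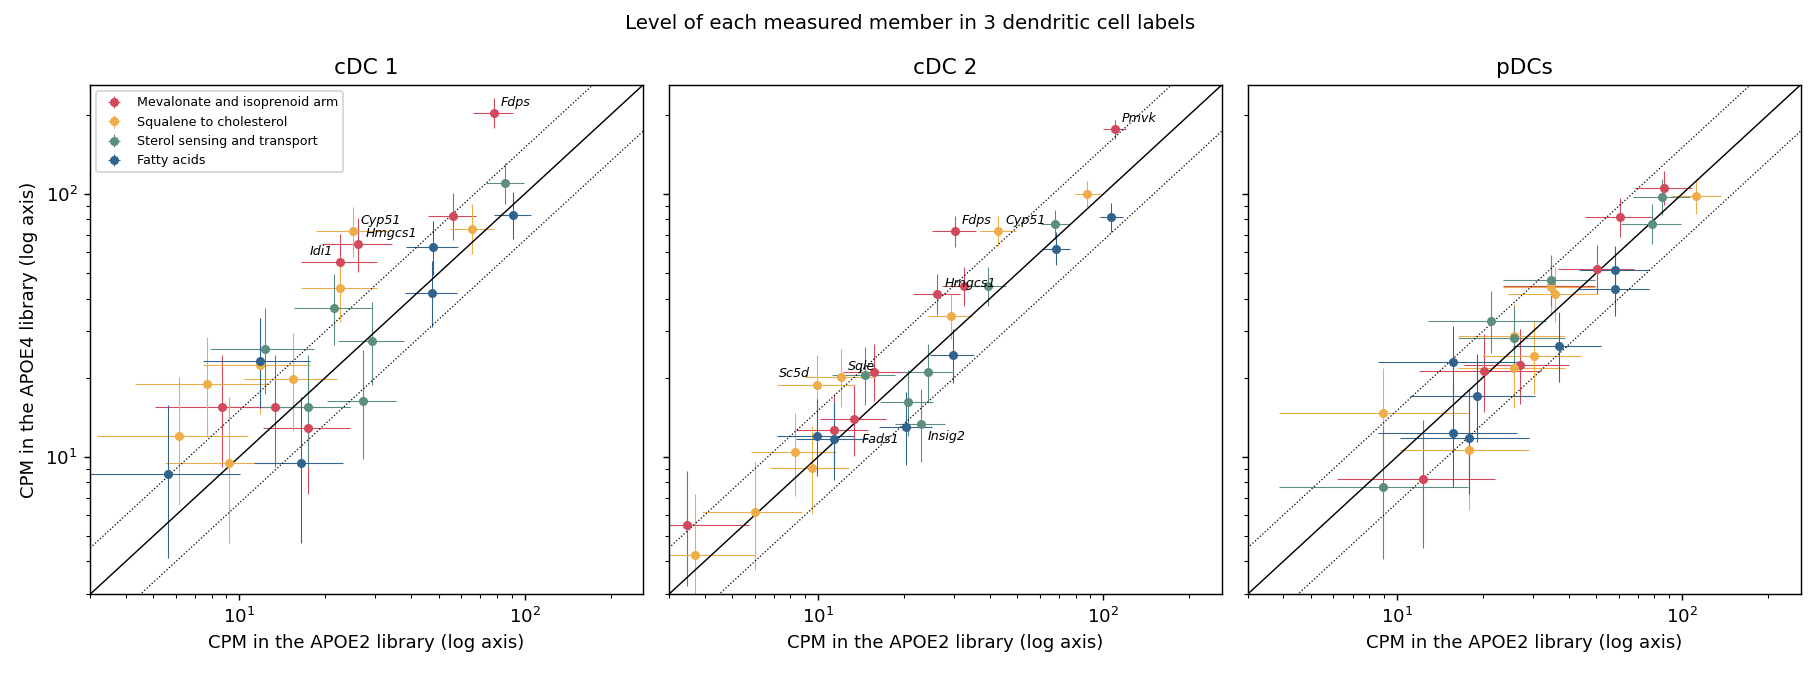
CPM in the APOE2 library (horizontal, log axis) against the APOE4 library (vertical, log axis) for each measured member in 3 dendritic cell labels, with 95% Poisson intervals. The solid line marks equal levels and the dotted lines 1.5-fold. Named genes have at least 100 UMIs and lie at or past 1.5-fold: Fdps, Cyp51, Hmgcs1 and Idi1 lie above the upper line in cDC 1, and no member of that depth lies past either line in pDCs.

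Other measures also moved between the 2 libraries of cDC 1, and their part in these values was not tested. The cDC1 markers Xcr1, Clec9a, Wdfy4, Cadm1 and Irf8 were present in both, at a summed 2892 and 3147 CPM. The 7 macrophage markers summed to 225 and 136 CPM (Mrc1 at 0 in APOE4) and the 5 cDC2 markers to 196 and 79.1 CPM, led by Mgl2 at 87.7 and 14.6 CPM. The 6 monocyte markers summed to 596.5 and 1697 CPM, with Plac8 at 475 and 1545 CPM and Ly6c2 at 8.72 and 82.5 CPM, while Ccr2 (194 and 76 UMIs) and Fn1 (23 and 2 UMIs) were lower in CPM in APOE4. The 18 genes of an interferon response list summed to 1149 and 3106 CPM. The 20 proliferation genes summed to 520 and 490 CPM, a ratio of 0.94 [0.85, 1.05]. Median UMIs per cell were 13089.5 and 12260. When cells with 3 or more proliferation UMIs were left out, the log2 ratio of the summed sterol enzymes was 0.76, against 0.91 with all cells.

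Type 2 conventional dendritic cells, which mainly prime CD4+ T cells, also held enzymes of the sterol pathway at higher levels in APOE4. Fdps stood at 30.1 CPM (130 UMIs, 411 cells) in APOE2 and 72.1 CPM (222 UMIs, 290 cells) in APOE4, a ratio of 2.395 [1.92, 2.997]. Pmvk stood at 109.5 and 176 CPM (1.61 [1.42, 1.825]) and Cyp51 at 42.8 and 72.4 CPM (1.69 [1.385, 2.07]). Hmgcs1, Sqle and Sc5d, a sterol desaturase, had ratios of 1.59, 1.67 and 1.89, with lower bounds of 1.22, 1.14 and 1.253. All 8 genes of the mevalonate arm were higher, by 1.5-fold or more in 4. The 19 sterol enzymes summed to 455 and 668 CPM, a ratio of 1.47 [1.38, 1.56].

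Of the 6 measured fatty acid genes of cDC 2, 2 were higher and 4 lower in APOE4, 1 of them by 1.5-fold or more. Scd2 was at 107 and 81.5 CPM (0.76 [0.65, 0.89]), Fads1 at 20.4 and 12.98 CPM (0.64 [0.43, 0.94]) and the sterol sensor Insig2 at 22.9 and 13.3 CPM (0.58 [0.39, 0.84]). These 3 were the lowest members with at least 100 UMIs in the label. The 7 fatty acid genes summed to 247 and 205.5 CPM, a ratio of 0.83 [0.75, 0.92]. Of 29 measured members 21 were higher in APOE4, where 56.7% of all 9627 genes were. At 1.5-fold or more, 7 were higher and 2 lower, against 10.8% and 8.35% of all genes, so the share lower was near that of all genes. The macrophage markers of cDC 2 summed to 1024 and 425 CPM. Its own cDC2 markers summed to 3097 and 1580 CPM, led by Mgl2 at 1319 and 231 CPM, while Cd7 was higher in APOE4 (113 and 208 CPM). The monocyte markers summed to 1119 and 3116 CPM, with Plac8 at 638 and 2411 CPM and Ly6c2 at 59.5 and 376 CPM. Of the monocyte markers Ccr2 (347 and 290 CPM) and Fn1 (67.8 and 31.2 CPM) were lower in APOE4. The T cell markers summed to 41.7 and 177 CPM and the interferon list to 1565 and 5192 CPM. The part of these lists in the values above was not tested.

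Migratory dendritic cells, which carry antigen to lymph nodes, had the highest Pmvk of all labels, 328 CPM in APOE2 and 291 CPM in APOE4 (0.89 [0.77, 1.01]). Idi1 was also highest here, at 89.1 and 151 CPM (1.69 [1.36, 2.11]). Hmgcs1 was at 28.0 and 59.0 CPM (2.11 [1.445, 3.09]) and Srebf2 at 44.3 and 62.4 CPM (1.41 [1.01, 1.96]). Fdps did not follow, at 26.3 and 25.3 CPM (0.96 [0.59, 1.55]). All 8 measured genes from squalene to cholesterol were higher, with Msmo1 at 24.1 and 42.2 CPM (1.75 [1.14, 2.695]). Of 24 measured members 15 were higher, against 54.3% of all genes. At 1.5-fold or more, 8 were higher and 2 lower, against 10.3% and 9.44%. With 20 UMIs required in each library, 4 of 10 measured members were higher and 0 lower, against 8.08% and 3.28%. Without the 10% of cells richest in sterol enzymes, a setting chosen after the data were seen, 2 were higher and 5 lower, against 9.93% and 9.64% of all genes. This setting removes cells by the counts it compares, which lowers those counts in both libraries, so no conclusion is drawn from it. The macrophage markers of migratory DCs summed to 631 and 155 CPM and the interferon list to 1749 and 3056 CPM. The monocyte markers summed to 285 and 748 CPM, with Plac8 at 117 and 632 CPM and Ly6c2 at 9.53 and 54.8 CPM. Of the same list Ccr2 (62.8 and 49.8 CPM), Vcan (19.6 and 5.90 CPM) and Fn1 (75.1 and 4.22 CPM) were lower in APOE4. The part of these lists in the values above was not tested.

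In pDCs, the main makers of type I interferon, the members differed little between the libraries. Fdps was at 60.6 and 81.8 CPM (1.35 [0.98, 1.88]), Pmvk at 86.4 and 105 CPM (1.22 [0.93, 1.61]) and Insig1 at 34.8 and 47.1 CPM (1.35 [0.88, 2.12]), with intervals that hold 1. The 19 sterol enzymes summed to 603 and 648 CPM, a ratio of 1.07 [0.97, 1.19]. Of 28 measured members 14 were higher and 14 lower, against 51.8% of all genes higher. The 2 at 1.5-fold or more higher and the 2 lower compare with 10.5% and 6.81% of all genes. When each cell was thinned to 1500 UMIs the median of the members was 0.53, from few UMIs a gene.

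The label Monocytic DCs, which had a high level of the proliferation list (5162 and 4810 summed CPM), had 3 sterol enzymes among its leading genes. Fdps was at 32.4 and 62.8 CPM (1.94 [1.53, 2.45]), Cyp51 at 24.0 and 42.7 CPM (1.78 [1.34, 2.36]) and Pmvk at 65.6 and 97.3 CPM (1.48 [1.24, 1.77]). Insig1 was at 17.5 and 30.4 CPM (1.74 [1.24, 2.43]). Fads1, which was highest in this label, was at 44.1 and 29.1 CPM (0.66 [0.50, 0.87]), but its log2 ratio turned to 0.06 when each cell was thinned to 1500 UMIs. In total 23 of 30 measured members were higher, against 50.7% of all genes. At 1.5-fold or more 5 were higher and 1 lower, against 8.09% and 9.97% of all genes. Without the 10% of cells richest in sterol enzymes, a setting chosen after the data were seen, the median was 0.07, against 0.26 with all cells. The cells left out were picked by the counts compared, so no conclusion is drawn from that value. The macrophage markers of this label summed to 8193 and 5739 CPM, the neutrophil markers to 43.6 and 712 CPM and the interferon list to 663 and 1653 CPM, and their part in these values was not tested.

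In monocytes and macrophages the genes that stood out were a sensor and a demethylase on the higher side and the desaturases on the lower side. Over the class as a whole, Insig1 was at 29.9 and 47.4 CPM (1.59 [1.41, 1.80]), Cyp51 at 17.4 and 27.1 CPM (1.555 [1.32, 1.83]) and Srebf2 at 21.95 and 30.6 CPM (1.395 [1.20, 1.62]). Scd2 was at 78.2 and 46.5 CPM (0.59 [0.54, 0.66]), Fads1 at 17.7 and 10.45 CPM (0.59 [0.47, 0.73]) and Acly at 105 and 80.9 CPM (0.77 [0.71, 0.83]). The intervals of the 6 ratios do not hold 1. Only Insig1 and Cyp51 were 1.5-fold or more higher of 31 measured members, and only Scd2 and Fads1 lower, against 8.12% and 14.9% of all genes, so neither share was above that of all genes. The class is made of labels in different proportions in the 2 libraries, so each label is given next.

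Mø cluster 1 (481 and 245 cells) had Insig1 at 26.6 and 48.7 CPM (1.83 [1.43, 2.345]) and Hmgcs1 at 21.2 and 38.75 CPM (1.83 [1.385, 2.41]). Scd2 was at 66.5 and 41.8 CPM (0.63 [0.50, 0.78]), Acly at 89.6 and 66.0 CPM (0.74 [0.62, 0.88]) and Fads1 at 35.9 and 26.5 CPM (0.74 [0.55, 0.98]). With 4 of its 30 measured members 1.5-fold or more higher and 4 lower, this label was near the 8.94% and 9.54% of all genes. Mø cluster 2 (398 and 161 cells) had Acly at 138 and 86.5 CPM (0.63 [0.52, 0.76]), Scd2 at 104 and 57.2 CPM (0.55 [0.43, 0.69]) and Ebp at 75.8 and 56.0 CPM (0.74 [0.58, 0.94]). Srebf2 was at 17.9 and 33.6 CPM (1.88 [1.30, 2.70]). The highest ratio of any measured member in the 17 labels was that of Sqle here, 5.87 [2.43, 15.6], from 8 and 18 UMIs. Its median over 27 measured members was 0.38, with 19 higher (against 49.9% of all genes) and 8 by 1.5-fold or more (against 7.8%), but the summed CPM of all members was 671 and 632 (0.94 [0.88, 1.01]), with Acly and Scd2 among its largest parts. The 3 that were 1.5-fold or more lower compare with 8.53% of all genes. The 7 fatty acid genes summed to 276.5 and 182 CPM (0.66 [0.58, 0.75]). When each cell was thinned to 1500 UMIs the median turned to -0.25. The proliferation list stood at 215 and 164 summed CPM in this label, and the interferon list at 887 and 1901 CPM, beside 796 and 2489 CPM in Mø cluster 1. Their part in these values was not tested.

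Insig1 and Cyp51 were higher in APOE4 in single monocyte labels too. In Monocytes 1, Cyp51 was at 20.1 and 38.3 CPM (1.91 [1.38, 2.67]), Insig1 at 27.2 and 44.5 CPM (1.64 [1.225, 2.19]) and Srebf2 at 23.0 and 34.9 CPM (1.52 [1.10, 2.10]). Scd2 was at 90.6 and 60.6 CPM (0.67 [0.55, 0.82]), and all 6 measured fatty acid genes were lower, with a summed ratio of 0.78 [0.69, 0.87]. In Monocytes 2, Insig1 was at 31.6 and 52.3 CPM (1.65 [1.21, 2.30]), Cyp51 at 12.0 and 22.65 CPM (1.89 [1.14, 3.28]) and Srebf2 at 17.1 and 27.55 CPM (1.615 [1.05, 2.56]), while Scd2 was at 47.4 and 45.6 CPM (0.96 [0.73, 1.28]). In Monocytes 3, where Insig1 was highest of all labels, it was at 48.7 and 57.6 CPM (1.18 [0.81, 1.75]). Stard4 was the highest ratio in that label, 3.68 [1.52, 10.8], from 6 and 32 UMIs. At 1.5-fold or more, 7 of the 28 measured members of Monocytes 1 were higher and 0 lower, against 10.1% and 9.78% of all genes, and 16 were higher by any amount, against 51.6%. In Monocytes 2, 6 of 25 were higher and 2 lower, against 6.73% and 10.5%, with 14 higher by any amount, against 47.5%. In Monocytes 3, 3 of 19 were higher and 2 lower, against 9.25% and 7.52%, with 14 higher by any amount, against 50.1%. The interferon list was higher in APOE4 in each of the 3 labels, at 922 and 3376, 9067 and 12020, and 1018 and 2160 summed CPM. The macrophage markers were lower in each, at 4019 and 2114, 5925 and 2587, and 807 and 623 CPM. The monocyte markers were higher in each, at 5753 and 10450, 7875 and 13310, and 9526 and 10860 CPM. The part of these lists in the values above was not tested.

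Of the lymphoid and stromal labels, NK cluster 2 had the lowest median. In NK cluster 2 (214 and 631 cells) Fdps was at 16.3 and 7.14 CPM (18 UMIs in each library; 0.44 [0.22, 0.89]) and 7 of the 8 mevalonate genes were lower, with a summed ratio of 0.73 [0.59, 0.92]. Elovl6, which lengthens saturated fatty acids, was the highest there at 26.3 and 57.9 CPM (2.21 [1.47, 3.41]). Of 25 measured members 1 was 1.5-fold or more higher and 4 lower, against 12.1% and 6.79% of all genes. In CD4+ T cells the median of 23 measured members was -0.04 and in the cycling Ki67+ CD8+ T cells -0.02 over 21, beside all-gene medians of 0.01 and -0.01. CD8+ T cells had a median of 0.21 over 22 members, above that of cDC 2 at 0.19, with only 113 cells in APOE2. Over 11 alternatives this median lay between -0.32 and 0.20, and it was -0.12 with a minimum of 50 UMIs. The summed sterol enzymes were at 317 and 315 CPM (1.00 [0.83, 1.20]). Stromal cells, which a CD45+ sort should largely remove, had 85 cells in each library and the highest Scd2, 192 and 250 CPM (1.30 [1.10, 1.54]). Cells of the label Diverse had Scd2 at 82.3 and 45.0 CPM (0.55 [0.44, 0.68]), and the cycling CD8+ T cells had it at 58.0 and 100.4 CPM (1.73 [1.19, 2.56]).

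In these labels the members' counts lay nearer those of all genes than in cDC 1. In CD4+ T cells 2 of 23 measured members were 1.5-fold or more higher and 3 lower, against 9.69% and 7.64% of all genes, and 11 were higher by any amount, against 51.7%. In CD8+ T cells 6 of 22 were higher and 1 lower, against 12.9% and 11.1%, with 13 higher by any amount, against 49.2%. In Ki67+ CD8+ T cells 1 of 21 was higher and 2 lower, against 12.1% and 9.73%, with 10 higher by any amount, against 49.7%. CD8+ T cells were thus the lymphoid label with the most members past 1.5-fold on the higher side, on few UMIs a gene. In Diverse 3 of 28 were higher and 3 lower, against 9.06% and 9.52%, with 15 higher by any amount, against 50.8%. In stromal cells 1 of 29 was higher and 2 lower, against 10.4% and 8.78%, with 14 higher by any amount, against 52.7%. M-MDSC 1 measured only 10 members, of which 1 was higher and 1 lower, against 16.2% and 10.1%, and 5 were higher by any amount, against 57.2%.

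Across labels some members leaned to one side and others did not. Insig1 was higher in 15 of the 17 labels that measured it, Cyp51 in 14 of 16 and by 1.5-fold or more in 8, and Hmgcs1 in 13 of 16. Pmvk and Msmo1 were higher in 12 of 17 each and Fdft1, the squalene synthase, in 11 of 14. Acly was lower in 14 of 17, Scd2 in 11 of 16 and Fads1 in 9 of 10. Fdps was higher in 10 of 16 labels and Srebf1 in 10 of 17. Others were split, with Sc5d higher in 9 of 16, Dhcr7 in 7 of 12, Scap in 7 of 16, Insig2 in 7 of 17 and Fasn in 6 of 14. Ebp was higher in 9 of 17 and stayed within 1.5-fold in all 17. Between 47.5% and 59.3% of all genes were higher in APOE4 in these labels. All labels come from the same 2 libraries, so they are not independent of each other. Members with too few UMIs in most labels were Lss, measured in 1 label, Fads2 in 1 (pDCs, 37.05 and 26.5 CPM), Tm7sf2 in 2, Hsd17b7 in 4 and Acat2 in 7.

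Levels also differed between labels. The summed sterol enzymes were lowest in M-MDSC 1, at 171 and 180 CPM. In APOE2 cells cDC 1 stood at 395 CPM. Migratory DCs at 667 CPM, pDCs at 603 CPM, stromal cells at 484 CPM and cDC 2 at 455 CPM had intervals wholly above that of cDC 1, and its Poisson interval met those of Ki67+ CD8+ T cells at 416 CPM, Monocytic DCs at 400 CPM and CD4+ T cells at 397 CPM. In APOE4 cells cDC 1 stood at 742 CPM. The interval of cDC 1 met those of migratory DCs at 777 CPM and cDC 2 at 668 CPM. Its level was above those of pDCs at 648 CPM, Monocytic DCs at 530 CPM and CD4+ T cells at 380 CPM. Fdps in cDC 1 was second to stromal cells (80.8 CPM) in APOE2 and highest of the 17 labels in APOE4. Single genes had other peaks. Scap, the escort protein of SREBP, was highest in pDCs at 85.3 and 97.7 CPM, with cDC 1 next at 29.2 and 27.5 CPM, and Srebf2 was highest in cDC 1. Acly was highest in Mø cluster 2 in APOE2 but not in APOE4, where its level there was 86.5 CPM and that of Monocytes 1 was 102 CPM.

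**Figure D3:**
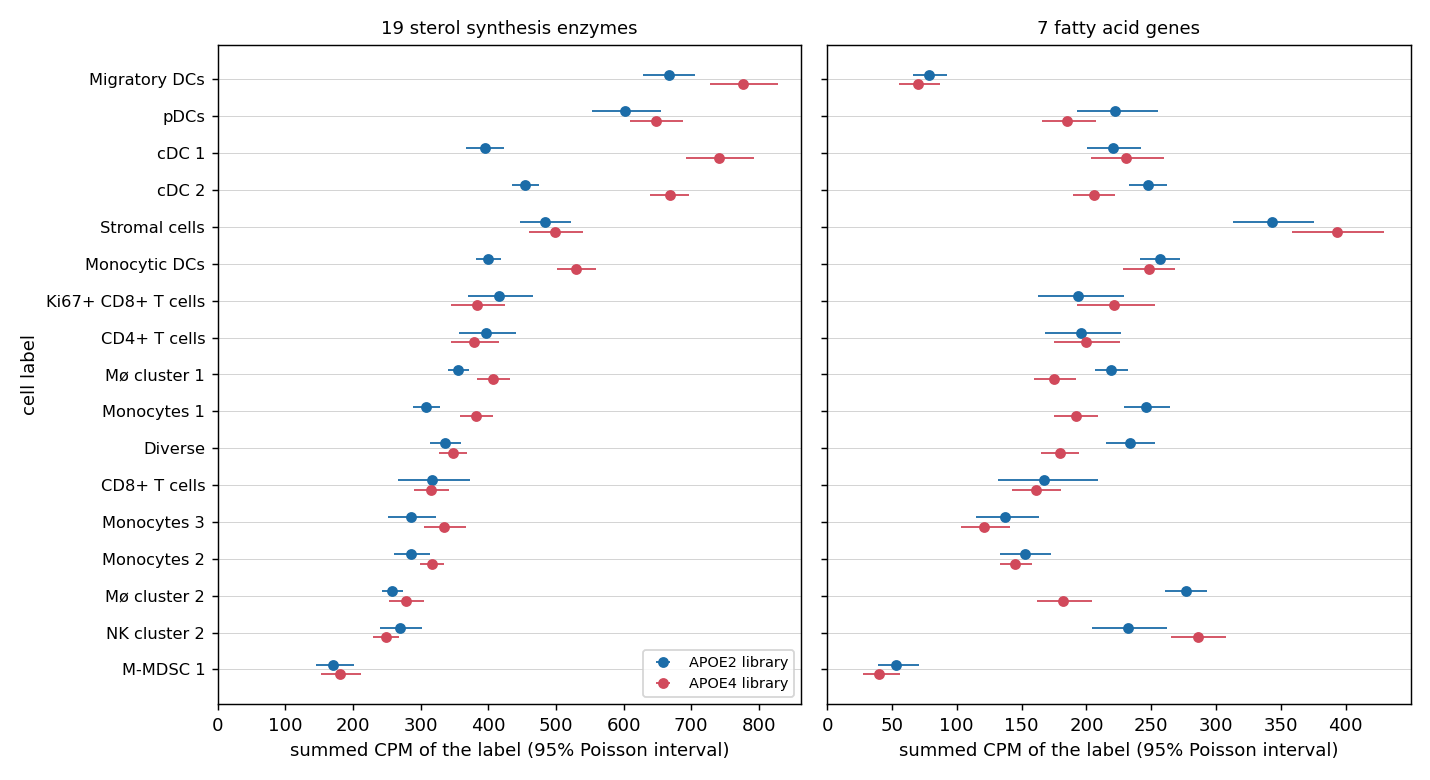
Summed CPM of the 19 sterol enzymes (left) and the 7 fatty acid genes (right) in each compared label, with 95% Poisson intervals, in the APOE2 library (blue) and the APOE4 library (red). The 2 libraries lie farthest apart on the left in cDC 1, at 395 and 742 CPM, and on the right in Mø cluster 2, at 276.5 and 182 CPM.

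In CPM of single cells the difference in cDC 1 was present at the median cell and was wider among the richest cells. At an equal depth of 5000 UMIs a cell, chosen after the data were seen, the median was 2 UMIs of the sterol enzymes in both libraries. The 75th percentiles were then 3 UMIs in APOE2 and 4 in APOE4, and the 90th percentiles 4 and 10.2. At 1500 UMIs a cell the medians were 0 and 1. Without thinning, the median of the summed sterol enzymes in single cDC 1 cells was 305 CPM in APOE2 and 535 CPM in APOE4. The 25th percentile was 197 and 274.5 CPM, and the 90th percentile 798 and 2038 CPM. The 10% of cells richest in these UMIs held 25.2% of them in APOE2 (14 cells) and 34% in APOE4 (9 cells), at 1329 and 3034 CPM, and the remaining cells stood at 319 and 534 CPM. In cDC 2 the medians were 363 and 502 CPM and the 90th percentiles 868 and 1367 CPM. In pDCs the medians were 530 and 487 CPM. Without the richest 10% of cells of each library the log2 ratio of the summed sterol enzymes was 0.74 in cDC 1 and 0.42 in cDC 2, a setting chosen after the data were seen. The cells left out were picked by the same counts, so these values are a description only. Stromal cells were the most uneven label examined, with 59% of sterol enzyme UMIs in 8 of 85 cells in APOE2 and 45.6% in 8 of 85 in APOE4.

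**Figure D4:**
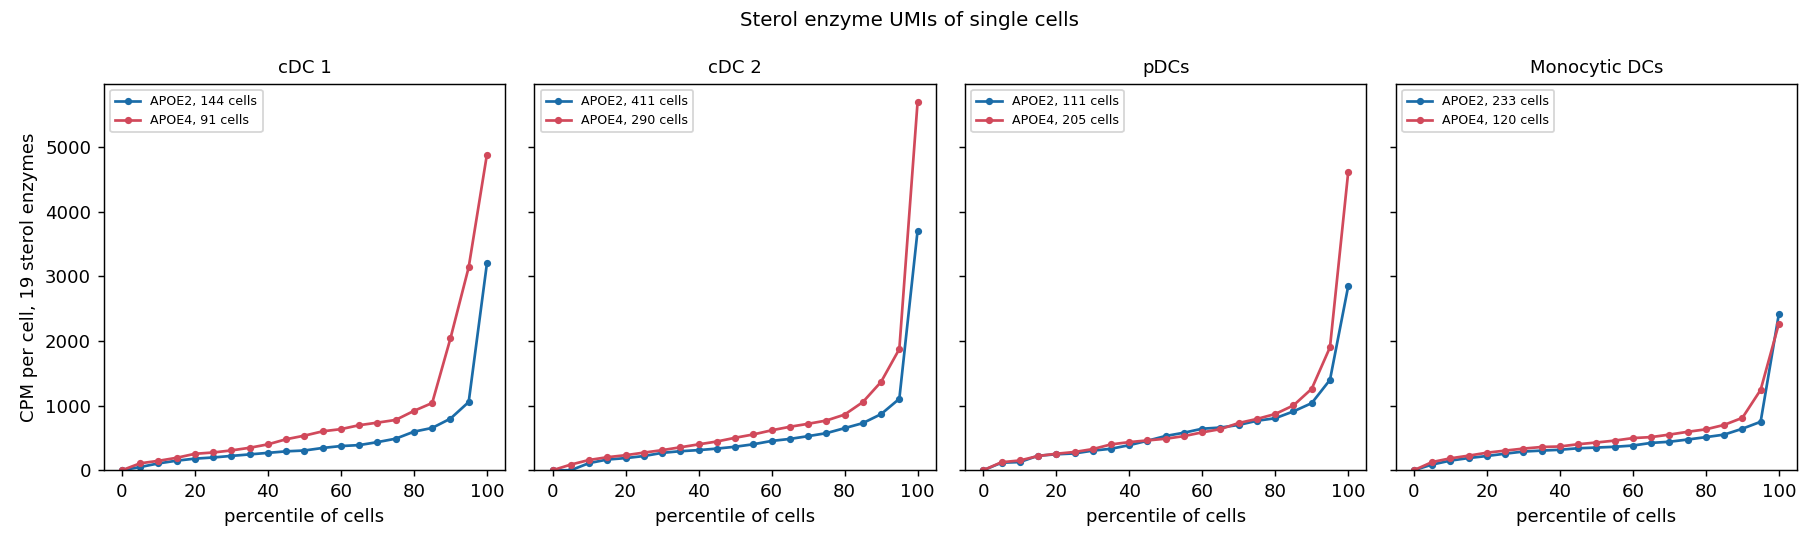
Summed CPM of the 19 sterol enzymes in single cells (vertical) by percentile of cells (horizontal) in 4 labels, APOE2 library in blue and APOE4 library in red. The red line lies above the blue one at the median in cDC 1 (535 and 305 CPM) and cDC 2 (502 and 363 CPM), and below it in pDCs (487 and 530 CPM).

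At equal depth more cDC 1 cells of the APOE4 library held a UMI of the leading enzymes. With each cell thinned to 5000 UMIs, a depth chosen after the data were seen, Fdps was found in 23.4% of 137 APOE2 cells and 42.7% of 89 APOE4 cells (44.4% and 65.9% unthinned). Cyp51 was found in 9.49% and 23.6% of cells (22.2% and 41.8% unthinned), Hmgcs1 in 13.9% and 27% (24.3% and 35.2%) and Scd2 in 29.9% and 25.8% (54.9% and 53.8%). The thinning left out 7 and 2 shallower cells. In pDCs Fdps was found in 23.4% of 107 and 23.6% of 195 cells at the same depth. At 1500 UMIs a cell, Fdps was found in 13.3% [8.19, 20] and 25.3% [16.7, 35.5] of cDC 1 cells. In pDCs it was found in 5 of 111 (4.5% [1.48, 10.2]) and 24 of 203 cells (11.8% [7.72, 17.1]). In both labels the intervals of the 2 libraries met at this depth, and each cell was sampled only once. No label is known to lack these housekeeping enzymes, but M-MDSC 1, with a median of 1631 and 1619 UMIs per cell, held 1 UMI of Fdps over its cells of both libraries.

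A fixed list of 22 other genes of lipid synthesis and its control was given beside the members. In cDC 1, 17 of the 22 were measured, 10 higher and 7 lower, with a median of 0.06, and 4 were 1.5-fold or more higher and 3 lower, against 8.65% and 8.93% of all genes. Scd1, the paralog of Scd2, was at 54.9 and 21.5 CPM (0.39 [0.24, 0.61]), and Elovl1, an elongase of very long fatty acids, at 45.65 and 73.9 CPM (1.62 [1.19, 2.20]). In cDC 2, 19 were measured, 9 higher and 10 lower, with a median of 0.00, and 2 were 1.5-fold or more higher and 4 lower, against 10.8% and 8.35%. In migratory DCs Elovl5, an elongase of polyunsaturated fatty acids, was at 70.0 and 114.7 CPM (1.64 [1.275, 2.105]). In NK cluster 2 Lpin1, a phosphatidate phosphatase of triglyceride synthesis, was at 55.2 and 95.2 CPM (1.72 [1.30, 2.32]).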

How the data were processed

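Single-cell RNA was measured in 2 samples, 1 pooled library per genotype. Per the file headers, the deposited matrices hold raw UMI counts made by the authors with Cell Ranger 3.0.1, and per the submitters' processing notes the build is mm10. The authors also deposited a table of annotated cells (the submitters' processing notes name Seurat 3.0.2). It gives the library, label and UMI count of each cell, with a mitochondrial percent that the authors computed per cell. The naming of cells, the treatment of doublets and the use of strand in counting are not stated in the labels or headers. The annotated spans of 8 members overlap a listed gene on the opposite strand (Fdft1 with Ctsb and Cyp51 with Akap9 among them) and those of 2 on the same strand.

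UMIs of the members, taken by symbol, were summed over the cells of each label and library and divided by the label total (CPM). The ratio of 2 sums carries the exact conditional binomial 95% interval and a level the exact Poisson 95% interval. UMIs of a cell and cells of a mouse are not independent, so these intervals do not hold the spread between mice, which was not measured. Members with at least 20 UMIs in a label over both libraries entered its median, with 0.5 added to both counts where either was 0. A gene was called at 1.5-fold, a median at 1.25-fold, and all genes with as many UMIs gave the background. Members with at least 100 UMIs were described in full, the 3 highest and 3 lowest per label by the bound of the ratio nearest 1, and the 2 highest and 2 lowest of the other genes. Not every gene this rule picks is described. Genes with fewer UMIs were named to complete a part. The members, the lists and these rules were chosen with earlier results of these data known. For thinned values each cell was sampled once (seed 0). The ratio was tested on simulated data. Python 3.11.15, numpy 2.4.6, scipy 1.17.1 and pandas 2.3.3 were used. Gene positions come from GENCODE M21 and promoter sequences from RefSeq. Alternatives changed the UMI minimum, the scaling, the weight of cells, the depth and the cells kept.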

Additional observations from a re-analysis of the deposited data

Results flagged for a closer look

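The log2 ratio of Scd2 (APOE4 over APOE2), one of the desaturases, was 0.79 in Ki67+ CD8+ T cells and -0.87 in the label Diverse, past 1.5-fold in opposite directions with 1 library per genotype in each label. The difference between the 2 labels was not tested.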

How the results depend on the processing

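With 1 library per genotype no library could be left out, and no alternative measures the spread between mice. No paired analysis was possible because each genotype is 1 pooled library. The median of the members in cDC 1 lay between 0.28 and 0.78 over 11 alternatives and that of the sterol enzymes between 0.59 and 1.12 (log2 ratios throughout); in cDC 2 these ranges were 0.13 to 0.28 and 0.18 to 0.50. In CD8+ T cells the median of the members ranged from -0.32 to 0.20. UMI minimums do not apply to summed or single values. Leaving out cells with 3 or more proliferation UMIs left fewer than 20 cells in a library of Ki67+ CD8+ T cells and Monocytic DCs, which gave no value. Cells under 5% mitochondrial UMIs left 10 pDCs in APOE2, which gave none either.

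Thinning each cell to 1500 UMIs moved the most values and left few UMIs a gene. The median of the members then was 0.50 in Diverse, 0.79 in migratory DCs, -0.10 in Monocytes 3, 0.68 in Monocytic DCs, 0.85 in stromal cells and 0.53 in pDCs, and turned to -0.25 in Mø cluster 2. That of the sterol enzymes was 0.96 in migratory DCs, 0.95 in Monocytic DCs, 0.01 in Mø cluster 2 and 0.71 in pDCs. The summed module was at 0.32, 0.55, -0.35 and 0.39 and the summed sterol enzymes at 0.52, 0.62, -0.07 and 0.56 in the same 4 labels, and the summed fatty acid genes at 0.19 in Monocytic DCs and -1.16 in Mø cluster 2. Of 24 members measured in migratory DCs, 13 were then 1.5-fold or more higher and 4 lower, against 21.7% and 24.7% of all genes. Of 27 members measured in Mø cluster 2, 9 were higher and 9 lower, against 20.8% and 22.2%. Of 27 in cDC 1, 14 were higher and 6 lower, against 30.3% and 25.3%. Without thinning, 13 members of cDC 1 were higher, against 8.65% of all genes. Fads1 in Monocytic DCs turned to 0.06.

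With cells under 5% mitochondrial UMIs, 5 of 27 members of Mø cluster 2 were 1.5-fold or more higher, against 8.99% of all genes. In cDC 1, 1 of 27 was then lower, against 9.61%. Without the 5% of cells with the most genes the median of Monocytes 2 was -0.10. Without cells with 3 or more proliferation UMIs it was 0.22 in Diverse and 0.63 in stromal cells, and the summed sterol enzymes of cDC 1 were at 0.76. As a mean over single cells the stromal median was 0.30. With a minimum of 50 UMIs, 3 of 10 members of migratory DCs were 1.5-fold or more higher and 0 lower, against 7.18% and 5.5% of all genes. In Mø cluster 2, 3 of 18 were higher, against 5.3%. In cDC 1, 8 of 18 were higher and 1 lower, against 5.89% and 4.97%. With 20 UMIs in each library, 4 of 10 members of migratory DCs were higher and 0 lower, against 8.08% and 3.28%. In Mø cluster 2, 3 of 16 were higher, against 6.16%, and in cDC 1, 0 of 17 were lower, against 2.74%. The setting without the 10% of cells richest in sterol enzymes was added after seeing the data. It removes cells by the counts it compares, which lowers those counts in both libraries, so it cannot test the differences. In this setting 2 of 24 members of migratory DCs were higher and 5 lower, against 9.93% and 9.64% of all genes. The medians were 0.07 in Monocytic DCs and 0.40 in stromal cells. The summed module was at 0.17 in Monocytic DCs, 0.38 in cDC 1 and 0.13 in cDC 2. The sterol enzymes of cDC 1 summed to 0.74, and those of cDC 2 to 0.42 with a median of 0.18. Beyond the smaller samples that each setting leaves, the cause was not tested.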
